A study of Mus musculus with 3 samples.

Results

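Dividing germ cells of the neonatal mouse testis were compared between a library from animals with a changed CDK2 kinase and a wild-type library. The comparison sets 37 cells that the authors assigned to germ cell cluster D, all from the library labelled Cdk2-Y15S, against the 28 Cdk2-WT cells of their cluster B. These 65 cells are part of 141 germ cells with a cluster, among 14422 cells of the whole series. The members were taken from the deposited assignment of cells to clusters, with the library read from each barcode.

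Whole-testis cell suspensions of 3 genotypes were profiled, with 1 library each, to ask how CDK2 kinase activity bears on male germ cell fate. Cdk2-WT stands for wild-type males, and Cdk2-Y15S is taken here, from the genotypes the series lists, to stand for males with both copies of the YS allele, born to heterozygous parents and not treated. Males of both groups were of mixed B6(Cg)-Tyrc-2J/J and FVB/NJ background and aged postnatal day 3 (3.5 days where the dissection is described). The allele is inherited, so somatic cells carry it too, and how many animals went into each suspension is not known from the labels. Genotype, library and the authors' cluster therefore cannot be told apart in this comparison, and each difference describes these 2 libraries, with no replicate check.

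CDK2 is a serine/threonine kinase that pairs with cyclins E and A in S phase, and phosphorylation of its tyrosine 15 by WEE1 family kinases holds it inactive. In the days after birth, male germ cells leave a resting state and divide again. Some found the pool of spermatogonial stem cells, which depends on GDNF from Sertoli cells acting through RET and GFRA1, while others move towards differentiation under retinoic acid, with STRA8 as an early response. The altered site is shown here in the reference coding sequence, from the first base of transcript Cdk2-201 (GENCODE M21), with the codon of residue 15 (bases 43 to 45) in capitals.
Cdk2 codons 1 onward: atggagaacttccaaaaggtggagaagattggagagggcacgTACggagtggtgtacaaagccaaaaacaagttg

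The 2 groups had similar depth. Cluster B of Cdk2-WT held 548465 unique molecular identifiers (UMIs, counted RNA molecules), from 13465 to 31450 a cell with a median of 18594. Cluster D held 628748, from 11154 to 23527 with a median of 16768. Mitochondrial genes took a median of 11.98% of the UMIs of a B cell and 11.12% of a D cell. No barcode of a B or D cell occurred in the other of the 2 libraries, although those libraries shared 27 barcodes in all. Levels are given as CPM, the UMIs of a gene per 1000000 UMIs of its summed group or cell, and ratios are log2 of D over B with 95% intervals for counting error only. Of 10451 genes in the germ cell table, the 7053 with at least 20 UMIs over both groups were compared.

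Both groups expressed the genes of dividing cells, but the proliferation marker that names the comparison was lower in D. Mki67, which encodes the Ki-67 protein of dividing cells, had 180.5 CPM in B and 92.2 in D. Per cell it ran from 0 through a median of 172.4 to 442.8 CPM in B, and from 0 through 77.4 to 270.5 in D. The ranges overlapped, and the median D cell stood below the median B cell. Its ratio was -0.96 (-1.46 to -0.49). A Mki67 UMI was found in 27 of 28 B cells (96.4%) and 27 of 37 D cells (73.0%), and in 86.2% and 59.7% once each cell was thinned to 11000 UMIs. In wild-type cluster A, where mitotic genes were lower, 8 of 36 cells (22.2%) held one, and in non-germ cells of the 2 libraries 18.2% and 17.9%, at median depths of 5540 and 5681 UMIs. Mki67 thus marked both groups and was 1.95-fold lower in D.

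The mitotic genes as a whole were near balance. B and D were chosen for the comparison because their mitotic gene levels were similar, and cluster A was left out as non-cycling. The balance and the distance from A therefore follow from that choice and are no independent result. Of 30 genes of G2 and M phase, 12 lay above and 18 below 0, none was at least 2-fold higher in D and 2 were at least 2-fold lower, where 5.02% and 5.15% of all compared genes were. The list had a median of -0.08 beside 0.01 for all compared genes. Their summed level per cell ran from 2802 through a median of 4753 to 8171 CPM in B and from 3161 through 4960 to 8745 in D. Every B and D cell stood above the median of cluster A, which was 1278 CPM with a range of 480.3 to 3995. Members at the low end were Nusap1, a spindle microtubule protein, at -1.22 (-2.17 to -0.36), and Tpx2, an activator of the Aurora A kinase, at -1.01 (-1.67 to -0.39). Tacc3, a spindle protein, lay at the high end with 0.82 (0.05 to 1.66), as did Cdca3 with 0.68 (0.25 to 1.13). Nusap1 and Tacc3 took the opposite sign in the 4 B and 11 D cells with at most 10% mitochondrial UMIs, at 0.16 and -0.18, and Cdca3 was at 1.51 there.

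**Figure D1:**
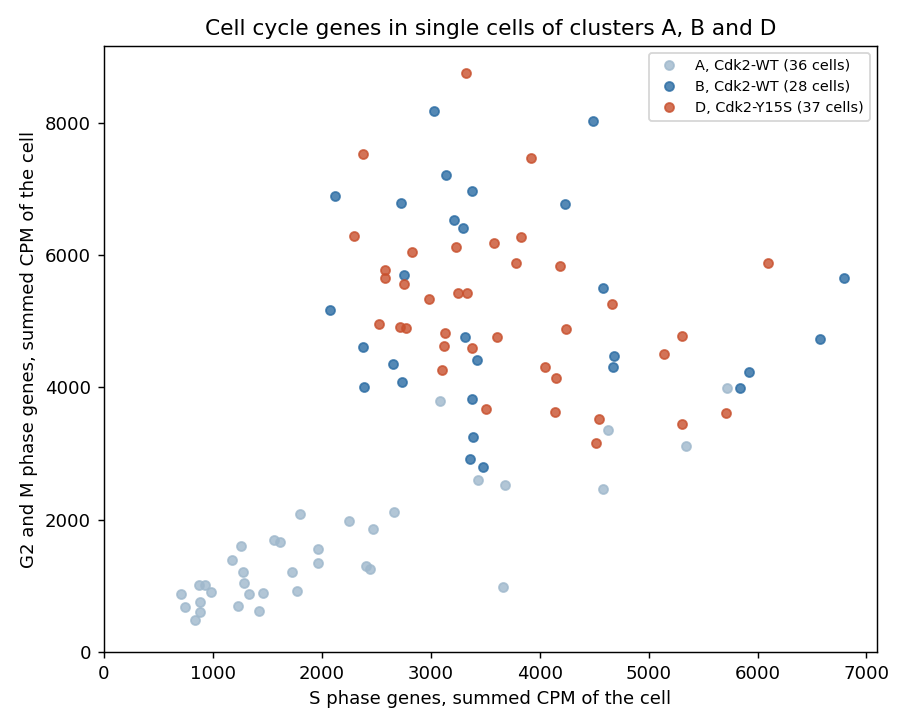
Summed CPM of 30 S phase genes (horizontal axis) against 30 G2 and M phase genes (vertical axis), 1 point per cell, for clusters A and B of Cdk2-WT and cluster D of Cdk2-Y15S. The 37 D cells and 28 B cells share one region of the plot, and most A cells lie nearer the origin. B and D were chosen for similar mitotic gene levels.

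S phase genes were also near balance. Of 30 members 17 lay above and 13 below 0, with a median of 0.08, and the per-cell sum had medians of 3368 CPM in B and 3505 in D. Pcna, the sliding clamp of DNA polymerase, was the lowest member at -2.34 (-3.72 to -1.28), with 37 UMIs in B and 8 in D. It was lower in the non-germ cells of the Cdk2-Y15S library too, from 27.7 CPM in the wild type to 9.18 CPM, and with the non-germ ratio taken off it was at -0.75. Pola1, a polymerase subunit, was next at -0.65 (-1.82 to 0.44). Orc6, a subunit of the origin recognition complex, was the highest at 0.79 (0.18 to 1.45), but 0.16 in the cells with at most 10% mitochondrial UMIs. Gins2, of the replicative helicase, had 0.52 (-0.26 to 1.34). No S phase gene was 2-fold higher in D, and Pcna was the only one 2-fold lower, against 5.15% of all compared genes.

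The promoters of the marker genes are shown because promoters of mitotic genes are known for CCAAT boxes and cell cycle elements, and Stra8 is known as a retinoic acid response gene. Each is the 250 bases upstream of the RefSeq start site (GRCm38.p6). Capitals mark CCAAT or its reverse ATTGG in both, TTTGAA in Mki67 (chr7:135716380-135716629, minus strand) and AGGTCA, a retinoid receptor half-site, in Stra8 (chr6:34920698-34920947, plus strand).
Mki67 promoter: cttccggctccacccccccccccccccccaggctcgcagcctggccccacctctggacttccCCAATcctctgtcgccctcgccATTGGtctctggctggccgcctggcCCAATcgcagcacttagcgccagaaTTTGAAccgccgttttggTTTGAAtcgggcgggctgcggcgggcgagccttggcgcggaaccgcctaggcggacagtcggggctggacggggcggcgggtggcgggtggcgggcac
Stra8 promoter: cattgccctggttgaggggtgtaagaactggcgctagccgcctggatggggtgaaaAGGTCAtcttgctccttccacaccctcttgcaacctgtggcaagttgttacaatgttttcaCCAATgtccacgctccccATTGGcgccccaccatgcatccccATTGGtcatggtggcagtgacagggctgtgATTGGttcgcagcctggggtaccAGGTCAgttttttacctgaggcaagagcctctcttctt
CCAAT on either strand occurred in 23 of 26 promoters of the G2 and M phase list (88.5%) and in 34.5% of all 27025 promoters. TTTGAA on either strand occurred in 10 of the 26 (38.5%) and in 16.3% of all. AGGTCA, found at 2 places in Stra8, was in 13.8% of all promoters. A match of letters is a description of the sequence and was not tied to any difference between the clusters.

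Stra8 was higher and Bcl6b lower in D. Stra8, the retinoic acid response gene needed for meiotic entry, had 15 UMIs in B (27.3 CPM, 15.3 to 45.1) and 122 in D (194.0 CPM, 161.1 to 231.7), a log2 ratio of 2.79 (2.05 to 3.71). Per cell it ran from 0 through a median of 0 to 326.1 CPM in B, and from 0 through 123.4 to 823.4 in D. The ranges overlapped, since 14 D cells had no UMI of it. A Stra8 UMI was present in 5 of 28 B cells (17.9%, 6.06 to 36.9) and in 23 of 37 D cells (62.2%, 44.8 to 77.5), and in 14.3% and 57.9% after thinning. Non-germ cells held one in 0.081% and 0.233% of cells. Bcl6b, a transcription factor induced by GDNF and needed for stem cell renewal, had 71 UMIs in B (129.5 CPM) and 22 in D (35.0 CPM), a ratio of -1.86 (-2.65 to -1.18). It was found in 22 of 28 B cells (78.6%) and 11 of 37 D cells (29.7%), in 64.6% and 23.4% after thinning, and in 0.689% and 0.770% of non-germ cells. Per cell Bcl6b ran from 0 through a median of 94.2 to 498.2 CPM in B, and from 0 through 0 to 400.9 in D. Every D cell thus lay within the wild-type range.

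The 2 markers were also counted together in single cells. In D, 19 cells held Stra8 without Bcl6b, 7 held Bcl6b without Stra8, 4 held both and 7 neither. In B the same counts were 1, 18, 4 and 5. A cell without a UMI may still express the gene, and whether the 2 markers avoid each other was not tested. In the 23 D cells with a Stra8 UMI the summed level of GDNF pathway genes had a median of 752.4 CPM (0 to 1357), and in the 14 D cells without one 1135 (289.0 to 1854). The D cells with Stra8 had medians of 1622 CPM for stem cell genes, 3785 for S phase and 4885 for G2 and M phase, and those without had 2008, 3245 and 5379. All of these ranges overlapped. Median depth was 16214 UMIs with and 17297 without a Stra8 UMI.

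The 6 Cdk2-Y15S cells that the authors placed in cluster B share their library with D and their cluster with the wild-type cells. Stra8 had 6.74 CPM there from 1 UMI, and Bcl6b 53.9 CPM from 8 UMIs. Cluster E, the other cluster made up of Cdk2-Y15S cells (21 cells), had 317.3 CPM of Stra8 and 19.3 of Bcl6b. Cluster A of Cdk2-WT had 25.2 and 109.4. Stra8 was thus high in D and E and low in the 6 Y15S cells of B, while Bcl6b in those 6 cells lay between the wild-type B cells and D. The small total of those 6 cells, 148331 UMIs, limits what they can show. Of their 8 Bcl6b UMIs, 6 came from 1 cell. The summed Sertoli markers reached 3145 CPM in 1 of the 6 cells, beside a highest of 644.1 in wild-type B.

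**Figure D2:**
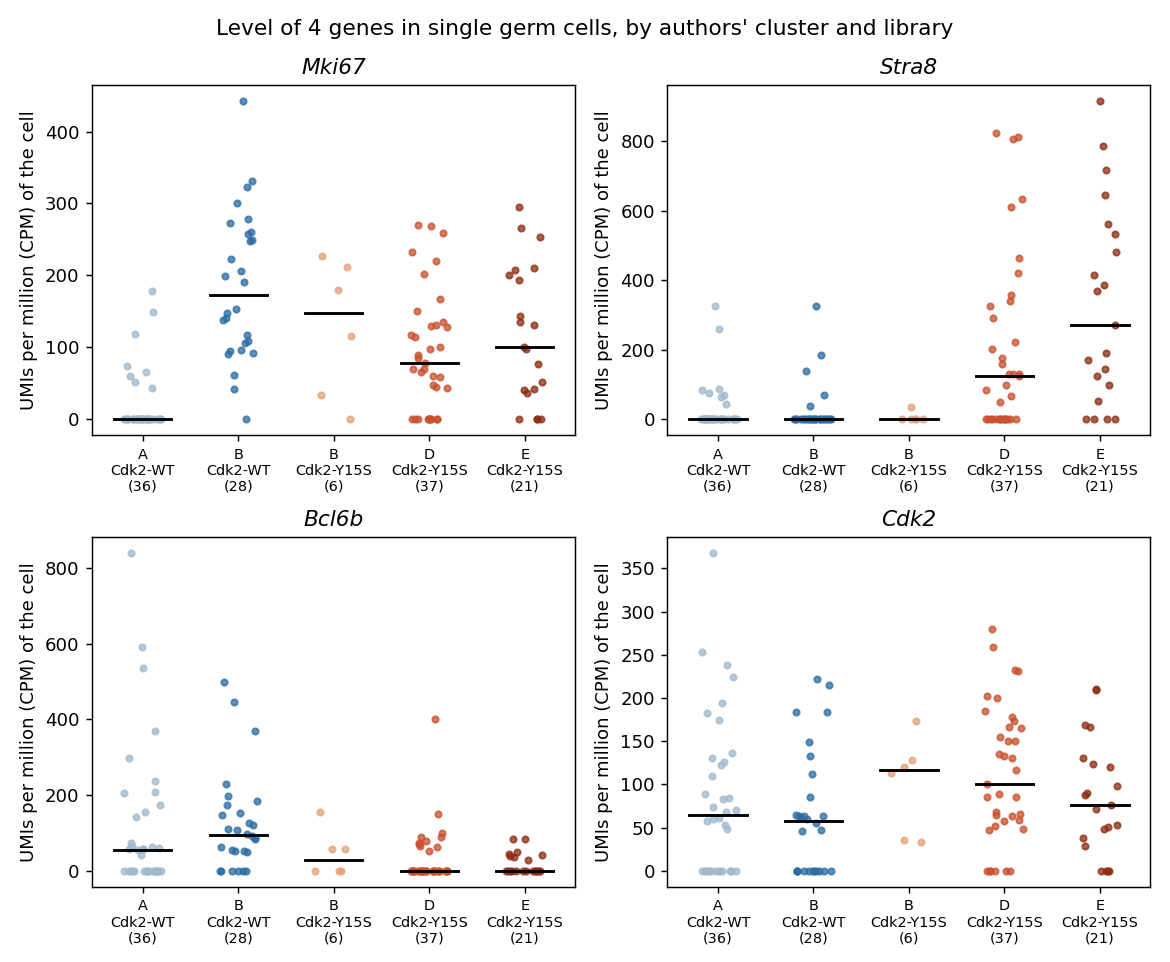
CPM of Mki67, Stra8, Bcl6b and Cdk2 in single germ cells (vertical axes), by cluster and library with cell numbers in parentheses; each point is a cell and the bar is the median. The median Stra8 level is 0 in wild-type B and 123.4 CPM in D, while the median of Bcl6b is 94.2 CPM in B and 0 in D.

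Cdk2 itself was read in both groups, which is no check of the allele because the change is a coding substitution and the libraries read the 3-prime ends. It had 35 UMIs in B (63.8 CPM) and 70 in D (111.3 CPM), a ratio of 0.79 (0.20 to 1.43). A UMI was found in 17 of 28 B cells (60.7%) and 31 of 37 D cells (83.8%), or 45.7% and 70.0% after thinning, and in 22.0% and 23.1% of non-germ cells. Non-germ cells had a ratio of -0.03. The 6 Y15S cells of B had 94.4 CPM, cluster E 81.2 and cluster A 80.8, so wild-type B was the lowest of the 5 groups.

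Among CDK2's partners and regulators, 16 of 25 listed genes were compared, 7 above and 9 below 0, with a median of -0.24. Cdkn1a, which encodes the CDK inhibitor p21, was the only one past 2-fold, against 5.15% of all compared genes lower, at -1.72 (-2.67 to -0.91), with 47 UMIs in 15 B cells and 16 UMIs in 10 D cells. Ccne1, cyclin E1, was at -0.87 (-1.70 to -0.09), and Ccna2, cyclin A2, at -0.64 (-0.98 to -0.31). With the non-germ ratio taken off, Ccne1 was at -0.15. Cks1b, a small subunit that binds cyclin-dependent kinases, was at 0.67 (0.38 to 0.96). Wee1, the kinase that phosphorylates tyrosine 15, was at -0.13 (-1.08 to 0.83), an interval that spans 0. Of the D cyclin and retinoblastoma list, 15 genes had a median of -0.09 with none past 2-fold. Cdkn2a, which encodes p16 and p19ARF, had 0.64 (0.22 to 1.07), and Rb1 -0.93 (-2.07 to 0.10). Cdk6, a kinase partner of D cyclins, had 0.73 (-0.19 to 1.76) and Lin54, of the DREAM complex, -0.80 (-1.95 to 0.26).

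Across all compared genes, 354 were at least 2-fold higher in D (5.02%) and 363 at least 2-fold higher in B (5.15%), together 10.2%. The counting interval left out 0 for 252 and 295 of them. The median over all was 0.01, and the SD of the ratios of 914 genes with at least 200 UMIs was 0.41. In the non-germ cells of the same 2 libraries those genes had an SD of 0.27. Those groups held 29064564 and 26911961 UMIs, far more than B and D, so their ratios carry less counting error. The 2 SDs are therefore not a like comparison of spread. The clusters were drawn by the authors from the genes of these same cells, so these counts describe how the clusters differ and carry no test. Of the genes past 2-fold, 20 of the 354 higher and 14 of the 363 lower in D were also past 2-fold in the same direction in non-germ cells. The share of all compared genes past 2-fold in non-germ cells is not given here, so no excess can be read from these counts.

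The highest ratio was shared by the whole library. Rpl29, a ribosomal protein gene with near-identical copies in the genome, had 14 UMIs in B and 326 in D, a ratio of 4.30, and non-germ cells had 4.18. Gm9112, a predicted gene, had 2.24 in germ cells and 2.65 in non-germ cells on 2 and 14 UMIs. Both are uncertain as germ cell differences, and with the non-germ ratio taken off they were at 0.11 and -0.41. Acp5, Lmo1 and Eif3j1 also had the sign of their germ ratio in non-germ cells, at 1.34, 1.33 and -1.05. With the non-germ ratio taken off, these stood at 0.50, 0.62 and -0.73.

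Igfbp2 and Tead2 were high in D with non-germ ratios near 0. Igfbp2, which binds insulin-like growth factors, had 10 UMIs in B and 84 in D, a ratio of 2.81 (1.92 to 3.99), with 0.03 in non-germ cells. Its median per cell was 0 in B, whose highest cell reached 73.9 CPM, and 133.1 in D. Tead2, a DNA-binding partner of YAP in the Hippo pathway, had 16 and 82 UMIs, in 12 of 28 B and 35 of 37 D cells, a ratio of 2.12 (1.38 to 3.03). In non-germ cells its ratio was -0.20, but 46.3% and 44.2% of them held a UMI, so the gene is read in many other cells too. Lmo1, a LIM domain cofactor of transcription, was at 1.95 (1.16 to 2.90), with 108.2 CPM in D and 325.0 in cluster E. Uqcc3, an assembly factor of respiratory complex III, was at 1.89, Acp5, a tartrate-resistant acid phosphatase, at 1.84, Sap30bp at 1.75 and Ssr3, a subunit of the translocon-associated complex, at 1.72. Rasgrp2, an exchange factor for RAP1, was at 1.58 (1.16 to 2.03) with 59 and 203 UMIs, and Aifm3 and Fsd1, like it at least 3-fold higher in germ than in other cells, at 1.68 and 1.39. Igfbp7 had 2.05, but 37.2% of its D UMIs came from 1 cell, and it was 1.07 without the 3 deepest cells of each group. In the 4 B and 11 D cells with at most 10% mitochondrial UMIs, Uqcc3 was at 3.30, Acp5 and Ssr3 at 3.53, Igfbp7 at 3.57 and Rasgrp2 at 0.90. With so few B cells a summed B count can be very small, and a ratio then depends on the 0.5 UMI added to each sum. The larger of these values are therefore not measured folds. Over all clusters but A, Lmo1 was at 2.96 and Igfbp7 at 0.92.

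The 12 lowest genes in D were of mixed kinds. Cxcl14, a chemokine, had 61 UMIs in 13 B cells and 3 UMIs in 2 D cells, a ratio of 0.050 on the linear scale and -4.33 on the log2 scale (-6.86 to -2.93). Mmp9, a matrix metalloproteinase, had 73 UMIs in 25 of 28 B cells and 9 UMIs in 8 of 37 D cells, at -3.15 (-4.40 to -2.21). Its median per cell was 93.2 CPM in B and 0 in D, and 0.14% and 0.047% of non-germ cells held a UMI. With the non-germ ratio taken off, Mmp9 was at -1.33. Cdc42ep3, an effector of the CDC42 GTPase, was at -3.28 (-4.53 to -2.35), with 80 and 9 UMIs. Prrx2, a homeobox factor, had 222.4 CPM in B and 28.6 in D, at -2.92 (-3.76 to -2.24), and at -1.96 over all clusters but A.

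The other low genes of the 12 had ratios between -2.31 and -1.73. They were Pdzd2 at -2.31, Pcsk1n, a proprotein convertase inhibitor, at -2.15, Map4k3, a kinase of nutrient signalling, at -2.05, and Trib1, a pseudokinase, 3.99-fold lower. Mast4 was at -1.86, Eif3j1 at -1.78 and Med14, a Mediator subunit, at -1.73. These values shifted in the 4 B and 11 D cells with at most 10% mitochondrial UMIs, a small set. Med14 was at -0.12 there, Mast4 at -0.86, Eif3j1 at -1.06 and Trib1 at -3.10. Cdc42ep3 was at -2.14 in those cells. Apart from Eif3j1 and Mmp9, the 12 lowest genes had non-germ ratios between -0.19 and 0.65. Levels in the 6 Y15S cells of B were 27.0 CPM for Mmp9, 53.9 for Cxcl14, 47.2 for Cdc42ep3 and 128.1 for Prrx2, each between wild-type B and D. Cxcl14 was read in only 2 of those 6 cells, and 1 of them held 7 UMIs.

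**Figure D3:**
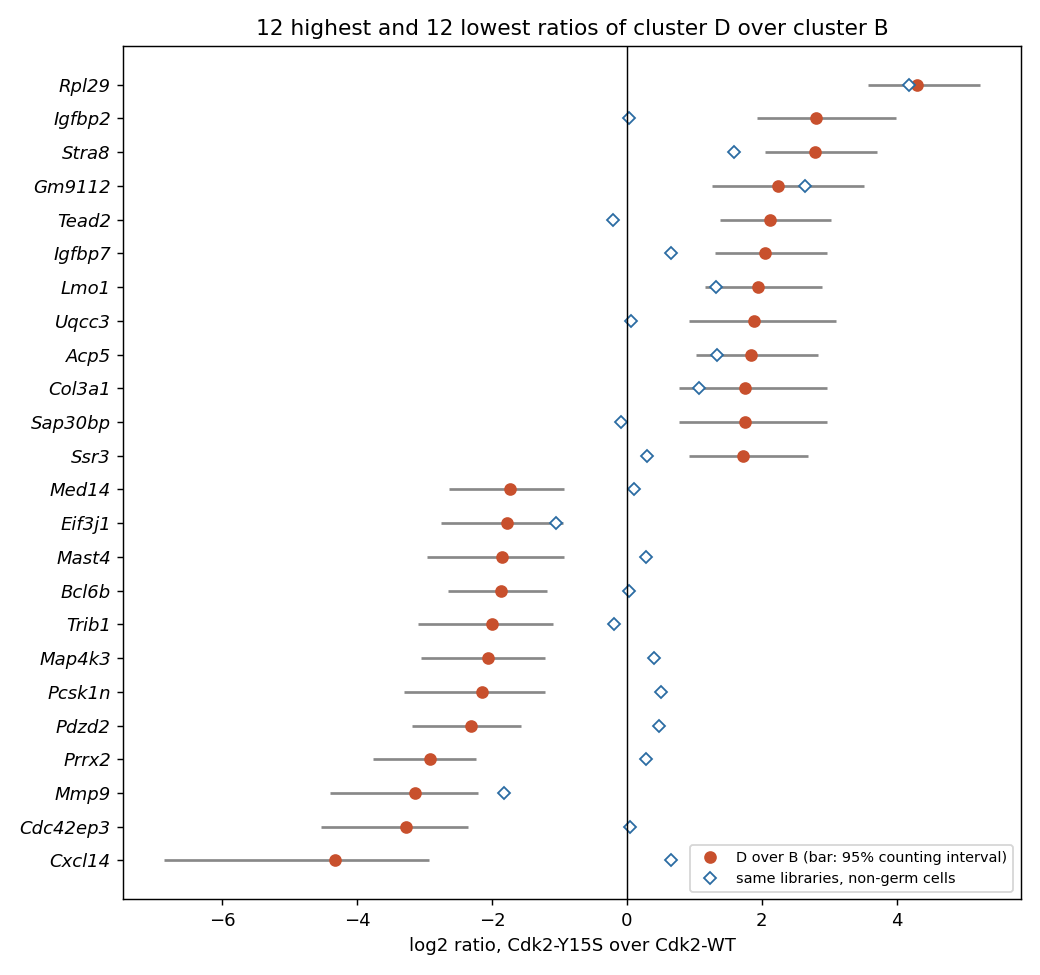
Log2 ratio of D over B for the 12 highest and 12 lowest genes with at least 50 UMIs (filled points, bars are 95% counting intervals), and the ratio of the same libraries in non-germ cells (open diamonds). Rpl29 and Gm9112 have non-germ ratios of 4.18 and 2.65, while Igfbp2, Tead2, Cdc42ep3 and Prrx2 have non-germ ratios within 0.3 of 0.

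Genes of the GDNF pathway were mostly lower in D. Of 21 listed genes 15 were compared, and 12 of them lay below 0, with a median of -0.76 beside 0.01 for all genes. Past 2-fold were 3 lower and 1 higher, against 5.15% and 5.02% of all genes. The receptor genes were Ret, the kinase, with 158.6 CPM in B and 85.9 in D (-0.88, -1.40 to -0.38), and Gfra1, its GDNF-binding partner, with 118.5 and 70.0 (-0.76, -1.35 to -0.19). Of genes that GDNF induces, Bcl6b was the lowest. Egr2, an early growth response factor, was at -1.46 (-2.37 to -0.67), and Lhx1, a LIM homeobox factor, at -0.92 (-1.52 to -0.35). The feedback inhibitors Spry4 and Dusp6 were at -1.31 (-2.67 to -0.15) and -0.87 (-1.70 to -0.09). Etv5 and Etv4, ETS factors downstream of GDNF, were at -0.09 and -0.18 with intervals across 0, so the pathway's genes did not all differ alike. The list's median ratio to wild-type B was -0.52 in the Y15S cells of B and -0.68 in cluster E. Those values share the wild-type B cells with the ratio of D. Against the Y15S cells of B, D had a median of -0.16. Lower levels were thus not particular to D.

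Per cell the summed GDNF list ran from 576.3 through a median of 1306 to 1869 CPM in B, and from 0 through 788.3 to 1854 in D. In D, 8 of 37 cells lay below the lowest B cell and 6 above the B median. The 3 members above 0 were Nefm, a neurofilament chain, at 0.93 (0.23 to 1.71), Cxcl12 at 1.39 (0.37 to 2.63) and Mycn, a MYC family factor, at 0.20 (-0.59 to 1.01). Nefm was at -1.22 in the cells with at most 10% mitochondrial UMIs, and Cxcl12 at -0.14 over all clusters but A. Cxcl12 is a stromal chemokine with 461 and 519 CPM in non-germ cells, and no level above the floor of 3 UMIs remained in either group once 10% of each group's UMIs was taken off as free RNA. Gfra2, Ncam1, T, Cxcr4, Spry2 and Dusp4 had too few UMIs to be compared.

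**Figure D4:**
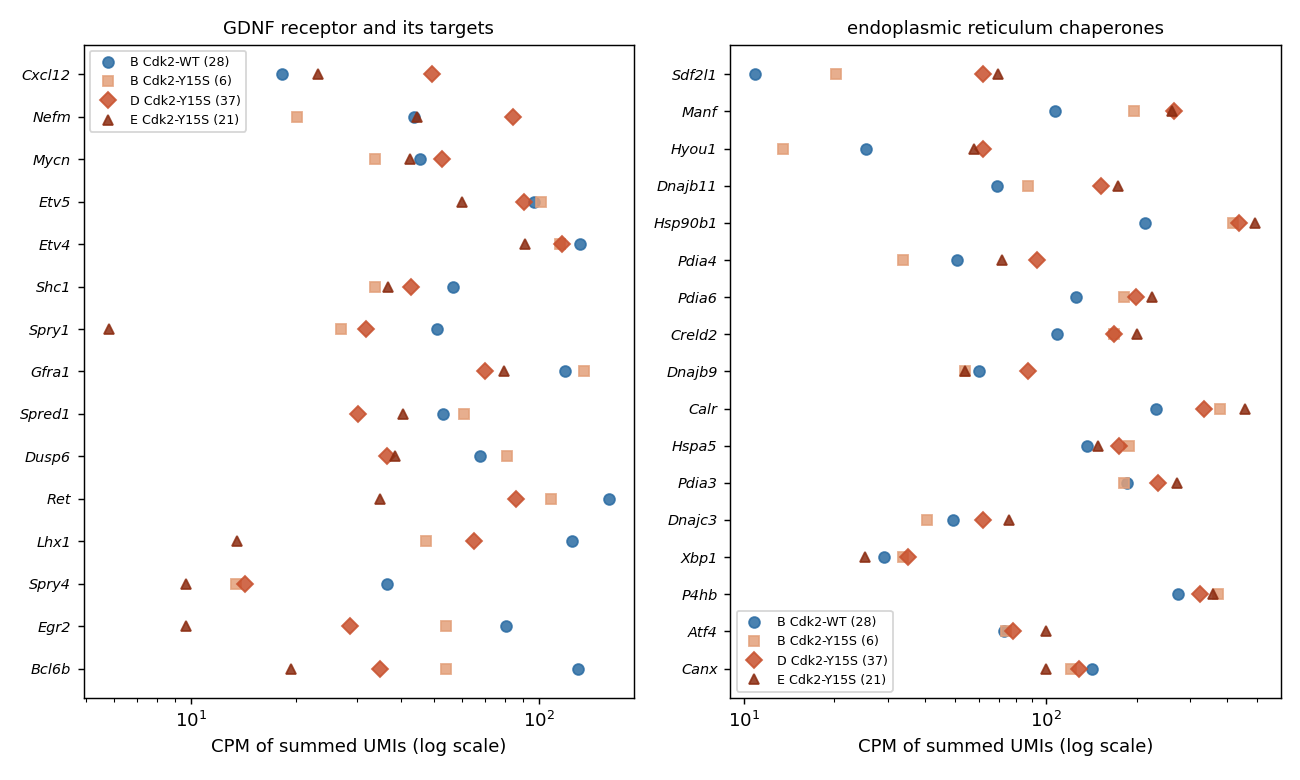
CPM of summed UMIs (log axis) for the compared genes of the GDNF list (left) and the endoplasmic reticulum chaperone list (right), in B of Cdk2-WT, B of Cdk2-Y15S, D and E; a level of 0 (Cxcl12 in B of Cdk2-Y15S) is not drawn. D lies left of wild-type B for 12 of 15 GDNF genes and right of it for 16 of 17 chaperone genes.

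Genes of the stem cell list were spread on both sides. Of 23 members 17 were compared, 12 below and 5 above 0, with a median of -0.28, also with Pax7 at its bound, and 4 were past 2-fold lower, against 5.15% of all genes. Pax7, a marker of a rare stem cell subset, had 22 UMIs in 13 B cells and none in D. Against a floor of 3 UMIs over the group it was at least 8.41-fold lower in D, and 0 of 37 D cells with a UMI allows a share of such cells of up to 8.11%, the limit of 3 counts in 37. That limit is for cells with a UMI, not for cells that express the gene. Eomes, a T-box factor, was at -1.45 (-3.17 to -0.07), and Tcl1, a coactivator of AKT, at -1.36 (-1.90 to -0.86). Tcl1 had 8 and 2 UMIs in non-germ cells, and with their ratio taken off it was at 0.29. Id4, an inhibitor of helix-loop-helix factors enriched in stem cells, was at -0.57 (-1.07 to -0.09). Cd9, a surface tetraspanin, was at -0.93 (-1.37 to -0.51). Uchl1, a ubiquitin hydrolase of spermatogonia, went the other way, with 286.3 CPM in B and 547.1 in D (0.93, 0.66 to 1.22), and so did Id3, another inhibitor of helix-loop-helix factors, at 0.79 (0.11 to 1.53). Id3 was at 0.07 over all clusters but A. The summed list had medians of 2042 CPM per cell in B and 1750 in D, with 8 D cells below the lowest B cell.

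Differentiation genes were higher in part. Of 14 compared genes of that list, with Stra8 counted among them, 8 lay above 0, with a median of 0.23. The 2 past 2-fold higher were Stra8 and Crabp1, against 5.02% of all genes. In non-germ cells the list had a median of 0.46, but some members were rarely read there. A Crabp1 UMI was found in 15 and 21 of those cells. Crabp1, which binds retinoic acid in the cytoplasm, had 98.5 CPM in B and 198.8 in D (1.01, 0.54 to 1.50), and was at 0.35 with the non-germ ratio taken off. Sohlh1, a helix-loop-helix factor of differentiating spermatogonia, had 105.8 and 197.2 (0.89, 0.44 to 1.38), and Dmrt1, which restrains premature meiosis, 268.0 and 362.6 (0.43, 0.13 to 0.74). Kit, the receptor that marks differentiating cells, had 0.70 with an interval reaching just across 0 (-0.02 to 1.48). Sall4, a zinc finger factor of germ cells, was at -0.65 (-1.07 to -0.25), Elavl2 at -0.58 and Ccnd2, cyclin D2, at -0.22 (-0.42 to -0.01). Dazl, the germ cell RNA-binding protein, was near equal at -0.02 (-0.20 to 0.16).

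Among progenitor genes, 6 of 8 compared lay above 0 with a median of 0.70 and none past 2-fold. The same list had a median of 0.58 in non-germ cells, and 0.014 in the germ comparison with each gene's non-germ ratio taken off. Some of those non-germ ratios rest on very few cells. Lin28a was read in 3 non-germ cells of Cdk2-WT and 7 of Cdk2-Y15S, and Lin28b in 2 and 3. The list's summed non-germ level went the other way, from 56.6 CPM in Cdk2-WT to 39.2 in Cdk2-Y15S. Nanos3 and Lin28a, RNA-binding proteins of early spermatogonia, had 0.92 (0.02 to 1.93) and 0.91 (0.17 to 1.73). Lin28a was at -0.30 with the non-germ ratio taken off and at 0.16 in the cells with at most 10% mitochondrial UMIs. The ends of the list were Lin28b, a relative of Lin28a, at 0.94 (-0.37 to 2.52) and Foxf1, a forkhead factor, at -0.43 (-1.74 to 0.84) beside Sall4. Retinoid genes had a median of -0.08 over 8 compared, with Crabp1 above and Rxrb, a retinoid X receptor, below at -1.24 (-2.60 to -0.06). Rxrb was at 0.36 in the cells with at most 10% mitochondrial UMIs. Rbp4, a retinol carrier, had 0.49 and Dhrs3, a retinal reductase, -0.97, both with intervals across 0. Of the pluripotency list, 9 had a median of 0.16, and Dppa4 was at -0.83 (-1.67 to -0.05) beside Tcl1. Sox2, a pluripotency factor, had 14 UMIs in B and none in D, too few to be compared.

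Endoplasmic reticulum chaperones, which fold secreted and membrane proteins, were mostly higher in D. Of 17 compared genes 16 lay above 0 and 5 were at least 2-fold higher in D, against 5.02% of all genes, with a median of 0.53. Manf, a secreted factor of the unfolded protein response, had 59 UMIs in B and 167 in D (1.30, 0.87 to 1.76), and was read in all 37 D cells. Hsp90b1, the chaperone GRP94, had 213.3 and 435.8 CPM (1.03, 0.71 to 1.35). Sdf2l1 was at 2.41 (1.25 to 4.03), Hyou1 at 1.25 (0.37 to 2.28) and Dnajb11 at 1.13 (0.58 to 1.72), all partners of BiP. BiP itself, Hspa5, had 0.35 (-0.08 to 0.80), and the regulators Xbp1 and Atf4 had 0.25 and 0.09 with intervals across 0. Canx, the chaperone calnexin, was the 1 member below 0, at -0.14. In the cells with at most 10% mitochondrial UMIs Manf was at 2.32.

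Per cell the chaperone sum ran from 934.0 through 1794 to 3468 CPM in B and from 1471 through 2834 to 4327 in D. In D, 36 of 37 cells lay above the B median and 8 above the highest B cell. In non-germ cells the list's median ratio was 0.06. The 6 Y15S cells of B had a median of 2695 CPM per cell, cluster E 3260 and cluster A 1774. The list's median ratio to wild-type B was 0.38 in those 6 cells and 0.61 in E, values that share the wild-type B cells with the ratio of D.

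Meiotic genes, which germ cells transcribe at a low level before meiosis, lay below 0 in 12 of 14 compared, with a median of -0.54 and 3 past 2-fold lower, against 5.15% of all genes. Tex12, of the synaptonemal complex, had 337.3 CPM in B and 149.5 in D (-1.17, -1.55 to -0.81), Sycp1 -0.61 (-0.98 to -0.24) and Smc1b, a meiotic cohesin, -0.62 (-0.99 to -0.26). With the non-germ ratio taken off, Tex12 was at -0.61. Ythdc2, an RNA helicase needed for meiotic entry, was at -1.16 (-2.46 to -0.04). The 2 members above 0 were Sycp3, of the synaptonemal complex, at 0.29 (-0.30 to 0.90) and Syce2 at 0.20 (-0.08 to 0.47). The meiotic list had median ratios to wild-type B of -0.45 in the Y15S cells of B and -0.62 in cluster E. Against the Y15S cells of B, D had a median of -0.15. Lower levels were thus not particular to D. Of 19 compared piRNA genes 13 lay below 0, with a median of -0.31 and none past 2-fold, and Gtsf1 was the lowest at -0.73 (-1.14 to -0.33). With the non-germ ratio taken off Gtsf1 was at -0.15, a value that rests on 10 and 6 non-germ cells with a UMI. Morc1 was next at -0.73 (-1.88 to 0.35). At the high end were Pld6, a mitochondrial nuclease, at 0.57 (-0.74 to 2.07) and Cdca7 at 0.51 (0.07 to 0.97). Cdca7 was counted in this list but is not a known piRNA factor. DNA methylation genes were balanced, 6 above and 6 below, except for Dnmt3b, a de novo methyltransferase, with 45.6 CPM in B and 117.7 in D (1.35, 0.70 to 2.09), the 1 member past 2-fold higher, against 5.02% of all genes. Tet3, which oxidises methylcytosine, had 0.91 (-0.25 to 2.27), and Dnmt1, the maintenance methyltransferase, -0.28 (-0.72 to 0.16). Uhrf1, a partner of DNMT1, was at -0.51 (-0.85 to -0.17).

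Among lists with at least 5 compared members, adhesion and migration genes had the lowest median, -0.81 over 12 compared, with 4 past 2-fold lower, against 5.15% of all genes. Cxcl14, Mmp9 and Pcsk1n led it, followed by Timp1, an inhibitor of metalloproteinases, at -1.11 (-2.28 to -0.07). Those leading genes are also among the 12 lowest of all, and Pcsk1n is listed although it encodes a proprotein convertase inhibitor. The list was drawn with earlier results of these data known, so its rank is no independent result. Itgb1, the beta-1 integrin chain, was at -0.93 (-1.52 to -0.38), while Cdh1, E-cadherin, had 0.89 (-0.16 to 2.11) and Epcam 0.10 (-0.26 to 0.46). Cholesterol synthesis genes lay below 0 in 13 of 16, with a median of -0.41 and 2 past 2-fold lower, against the same 5.15%. Insig1, which holds back sterol synthesis, had 217.0 and 82.7 CPM (-1.38, -1.89 to -0.91) and Srebf2, the factor that drives it, -0.96 (-1.76 to -0.21). Cyp51, a sterol demethylase, was at -1.24 on 17 and 8 UMIs. At the high end Fdps, which makes farnesyl diphosphate, had 0.52 and Msmo1, a sterol oxidase, 0.37, both with intervals across 0.

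Stress lists did not point one way. Of 15 compared p53 and apoptosis genes 10 lay below 0, with a median of -0.20 and 2 past 2-fold lower, Cdkn1a and Pmaip1, against 5.15% of all genes. Pmaip1, which encodes NOXA, was at -1.44 (-2.17 to -0.77), and Bax was at 0.44 (0.14 to 0.74). Trp53 itself had 0.48 and Tigar, a p53 target, 0.63, with intervals across 0. DNA damage genes had a median of -0.11 over 21, with Topbp1, an activator of ATR, at -1.03 (-1.55 to -0.53) and Atm at 1.04 (0.16 to 2.04), the only ones past 2-fold, against 5.15% lower and 5.02% higher among all genes. Rpa3, which binds single-stranded DNA, had 0.75 (0.17 to 1.38) and Fancd2, of the Fanconi pathway, -0.93 (-2.07 to 0.10). Immediate early and heat shock genes had a median of 0.39 over 17, with 4 past 2-fold higher in D and 1 lower, against 5.02% and 5.15% of all genes. Ier3, an early response gene, was the highest with 1.83 (0.61 to 3.49) on 6 and 26 UMIs, but was at 0.36 in the cells with at most 10% mitochondrial UMIs. Nr4a1 had 1.31 (0.64 to 2.06), and Hmox1, heme oxygenase, -1.52 (-2.20 to -0.91). Dusp1, a MAP kinase phosphatase, was at -0.87 (-2.01 to 0.18). The whole list summed to 2522 CPM in B and 3009 in D, and to 12950 and 12150 in non-germ cells, and no ratio was left for Fosb with 10% free RNA taken off. Glycolysis was near 0 at -0.02, with Eno1 at 0.94 (0.37 to 1.55) and Ldhb, a lactate dehydrogenase chain, at -1.44 (-2.11 to -0.83). Ldhb was the only member past 2-fold, against 5.15% of all genes lower, and was at -0.61 in the cells with at most 10% mitochondrial UMIs. Pdk1, which restrains pyruvate dehydrogenase, had 0.61 (0.12 to 1.11) and Slc2a1, a glucose transporter, -0.90 (-2.31 to 0.35). Mitochondrially encoded genes had a median of -0.09 with 11 of 13 below 0, from mt-Nd4l at -0.44 and mt-Co1 at -0.28 to mt-Atp8 at 0.12 and mt-Nd6 at 0.20.

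**Figure D5:**
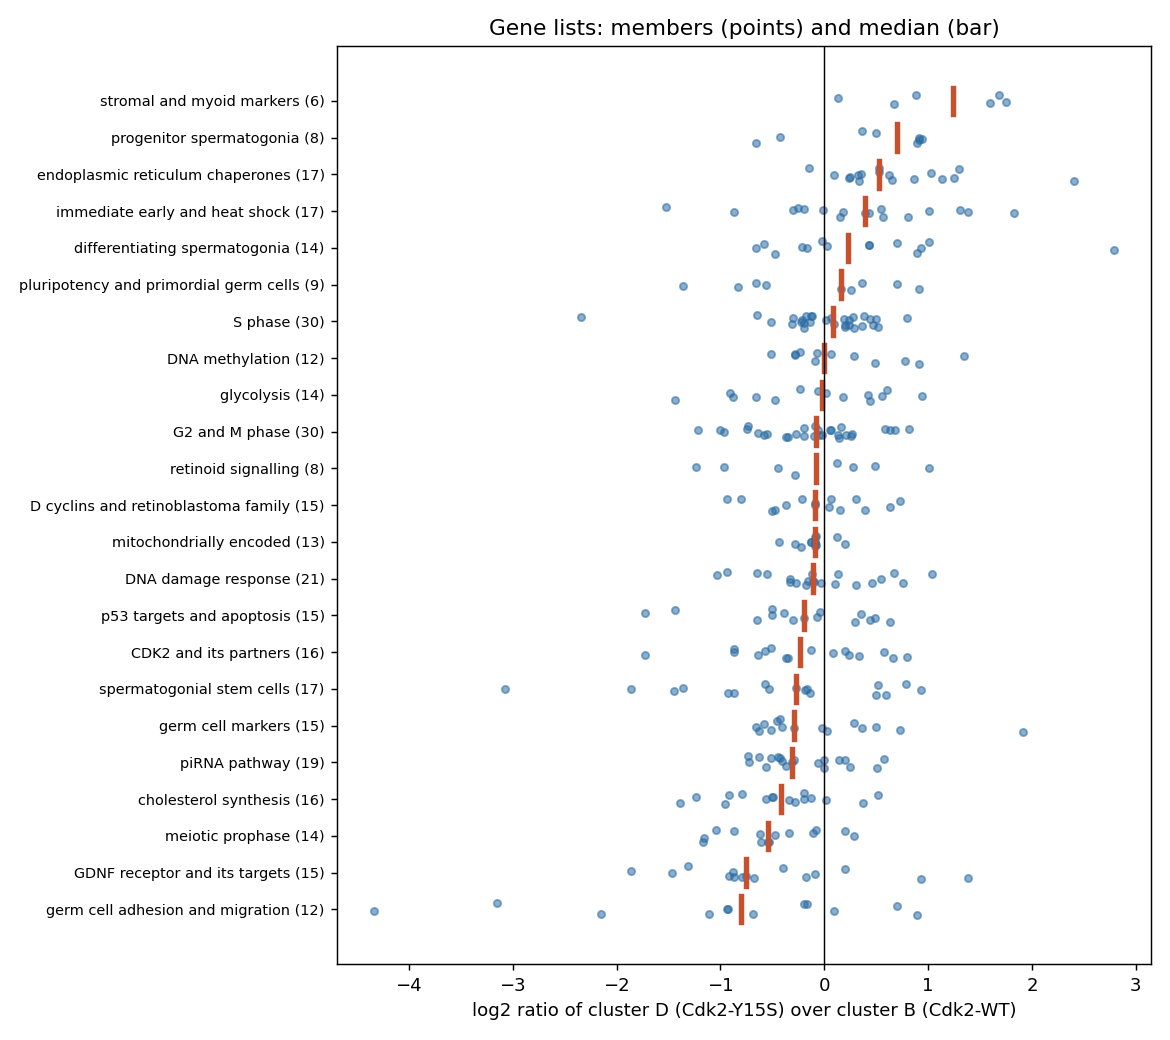
Log2 ratio of D over B for each compared member of each gene list with at least 5 (points, number in parentheses), with the list median as a bar; Pax7, at 0 in D, is drawn at its bound. Medians run from -0.81 for adhesion and migration to 0.70 for progenitor genes and 1.24 for stromal markers.

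Markers of other testis cells were read in both groups. The 14 stromal and myoid markers summed to 187.8 CPM in B and 418.3 in D, with 9 and 13 of them read, and that is 5.78% and 7.33% of their level in each library's own non-germ cells. Lum, Tcf21, Postn, Myh11 and Cnn1 were at 0 in B, and Cnn1 in D. Of these markers Col1a1 had a ratio of 1.69 and Col3a1 of 1.75, and in non-germ cells 1.12 and 1.06. The lowest stromal ratios were 0.13 for Ptch1 and 0.67 for Dcn. Neither collagen gene kept a level above 3 UMIs in either group once 10% of the UMIs was taken off as free RNA. The 15 Sertoli markers summed to 364.7 CPM in B and 376.9 in D, 5.90% and 7.80% of the non-germ level, with none at 0 in B and Gdnf at 0 in D. Aard had 0.52, Clu 0.55, Cst12 0.25 and Ptgds -1.45, which was 0.24 with the non-germ ratio taken off. The 8 Leydig markers summed to 182.3 CPM in B and 211.5 in D, 35.3% and 48.2% of the non-germ level, with 5 and 4 read. Of their UMIs 92 of 100 in B and 120 of 133 in D were of Fdx1, a gene with a ratio of 0.18. Insl3, Hsd3b6 and Lhcgr were at 0 in both groups, and Cyp17a1 in D. The 16 endothelial and blood markers summed to 167.7 and 90.7 CPM, 27.3% and 21.9% of the non-germ level, with 10 and 8 read. Egfl7 gave 48 of 92 and 33 of 57 of those UMIs, at a ratio of -0.73. At 0 in both groups were Ptprc, Csf1r, C1qa, C1qb and Hba-a2, with Emcn at 0 in B and Kdr, Hbb-bt and Alas2 at 0 in D.

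Taking off 10% of each group's UMIs as free RNA gave list medians of -0.84 for GDNF genes, 0.60 for chaperones, 0.25 for immediate early and heat shock genes and -0.28 for retinoid genes. Of single genes, Igfbp7 was then at 3.83, Uqcc3 at 3.14, Ier3 at 5.12, Id3 at 4.92, Clu at 3.26 and Ldhb at -2.49. Where the subtraction left few or no UMIs in 1 group, a ratio depended on the 0.5 UMI added to each sum. The sizes of these ratios are therefore not measured folds. Among the 80 checked genes whose interval left out 0, all of them named genes, none took the opposite sign under that subtraction where a ratio could be taken. No ratio was left for Col1a1, Col3a1, Cxcl12, Fosb and Ptgds among others. The check therefore says nothing on those genes or on genes that were not named. The germ cell markers, 15 and 16 of 16 read, summed to 3191 and 2748 CPM, beside 19.4 and 21.2 in non-germ cells. Of 15 compared, Rhox10 was the highest at 1.92 (0.46 to 4.07) on 4 and 19 UMIs and the 1 past 2-fold, against 5.02% of all genes, with Dnd1 at 0.73 and Tdrd9 at -0.63. A doublet caller run in each library marked no B or D cell.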

How the data were processed

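Single cells were captured on the 10x Genomics 3-prime v2 system, per the labels' protocols. Cell Ranger 2.1.0, Seurat and mm10 are named in the submitters' processing notes; their settings and the way clusters were drawn are not stated. The deposited values are counts: whole UMIs of 27998 genes in all cells, and a germ cell table of 10451 genes that equals it and holds 98.7% of the 141 cells' UMIs, each gene being found in at least 14 of them.

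UMIs were summed per group. Ratios used full cell totals with 0.5 UMI added to each sum, and have conditional exact binomial intervals, whose coverage was tested on simulated data. CPM has exact Poisson and shares exact Clopper-Pearson intervals. Shares were also computed for cells thinned to 11000 UMIs, and no B or D cell was shallower (256 and 300 non-germ cells were deep enough). Non-germ cells (4935 and 4287) are those outside the 141 with UMIs of fewer than 2 of Ddx4, Dazl and Mael, so a few germ transcripts remain there. Named were Cdk2 and the 3 markers, 12 genes at each end of the ratios (minimum 50 UMIs), found in 33.3% of cells of the higher group and with an interval off 0, the 8 each way among germ-enriched genes, and the 2 highest and lowest members of each of 27 lists; 1 gene of this rule is not reported here. Other list members are given as examples, chosen after their values were seen. The cells and lists were chosen with earlier results of these data known. Ratios centred on the median gene, other totals, cell sets, UMI minimums and clusters were tried. Scrublet called 88 of 5061 and 66 of 4403 cells in the 2 libraries. Python 3.11.15, numpy 2.4.6, scipy 1.17.1 and scanpy 1.11.5 were used. Gene positions are from GENCODE M21. The heterozygous library holds no cell with a deposited cluster and was not used.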

Additional observations from a re-analysis of the deposited data

How the results depend on the processing

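No paired analysis was possible because each genotype has 1 library and single cells carry no pairing. Of 15 alternatives, the ratio of Stra8 stayed between 1.20 and 3.30, Bcl6b between -2.22 and -1.58 and Mki67 between -1.32 and -0.61. Stra8 was 1.69 in cells with at most 10% mitochondrial UMIs, which leaves 4 B and 11 D cells, and 1.20 with the non-germ ratio subtracted, which rests on 4 and 12 UMIs. Genes at least 2-fold higher in D and in B were counted over different numbers of compared genes. They were 354 and 363 of 7053 in the main comparison, and 158 and 131 of 2395 in the cells with at most 10% mitochondrial UMIs. With at least 50 UMIs they were 97 and 118 of 3972, and with at least 5 UMIs 846 and 949 of 10292. The counts alone are therefore not a like comparison. With the non-germ ratio subtracted, 570 of 7053 genes were at least 2-fold higher in B. Under the 10% limit the list medians were -1.09 for GDNF genes, -0.34 for S phase, -0.69 for p53 genes and -0.051 for mitochondrially encoded genes. With the non-germ ratio subtracted, S phase was 0.50 and mitochondrially encoded genes -0.044, and these were -0.27 with E added to D. The sign turned for 9 of 1191 values of named genes whose interval left out 0. With the non-germ ratio subtracted these were Ptgds 0.24, Gm9112 -0.41, Lin28a -0.30 and Tcl1 0.29. Under the 10% limit they were Nusap1 0.16, Tacc3 -0.18, Nefm -1.22 and Rxrb 0.36. Over all clusters but A it was Cxcl12 at -0.14. The cause was not tested. Where both sums were at or under 3 UMIs no ratio was taken, a rule added after such values had been seen. It left no value for Col1a1, Col3a1, Dcn, Cxcl12, Fosb, Aard, Cst12, Ptgds and the stromal list after 10% free RNA was subtracted, an amount above the 5.78% to 7.80% that stromal and Sertoli markers reach and below the 21.9% to 48.2% of the Leydig, endothelial and blood markers. In all 24 values could not be obtained. The chaperone median stayed between 0.45 and 0.62.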
